A study of Mus with 18 samples.

Results

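Dusp1 (ENSMUSG00000024190), Dusp4 (ENSMUSG00000031530), Dusp5 (ENSMUSG00000034765), Dusp6 (ENSMUSG00000019960), Dusp10 (ENSMUSG00000039384), Spry1 (ENSMUSG00000037211), Spry2 (ENSMUSG00000022114) and Spry4 (ENSMUSG00000024427) are 8 of the 55416 Ensembl gene IDs counted in lens epithelial cells (LECs) of the mouse, and were picked by their IDs as negative feedback genes of growth factor and ERK signalling. They were followed over 18 RNAseq libraries that fall into 6 groups of 3. LECs of wild type mice (WT), of Egr1KO mice and of FosBcKO mice, all given as C57BL/6 and 3 to 5 months old, were collected with the lens capsule at 0 h or at 6 h post cataract surgery (PCS), the surgical removal of the lens fiber cells. Egr1KO mice are homozygous for a systemic Egr1 allele with a neo cassette in exon 2. FosBcKO mice carry a floxed FosB allele whose exons 2 and 3 are deleted in the lens by MLR10 cre, a transgene driven by the alpha A crystallin promoter. Each library pooled 5 capsules, and one eye of a mouse was operated on 6 h before the other, so that both times could come from the same animals.

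Mitogen activated protein kinases (MAPKs), among them ERK, JNK and p38, carry signals of growth factors and stress to the nucleus. The dual specificity phosphatases encoded by the Dusp genes remove phosphate from these kinases and switch them off, and many Dusp genes are themselves switched on by the kinases that their products restrain. Sprouty proteins, encoded by the Spry genes, act higher up, between receptor tyrosine kinases and the kinase cascade, and are also induced by the signals that they dampen. In the lens, FGF signalling through ERK is known for its part in LEC growth and in the differentiation of fiber cells.

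Levels are given as CPM, read counts divided by the library size after scaling by the trimmed mean of M values (TMM), and are not divided by gene length, so genes are compared only with themselves. Values of a group are given in the order of replicates 1, 2 and 3, and a gene is called where its FDR corrected p value was at most 0.05 and its change exceeded 2-fold. Libraries held 9609295 to 13871592 counted read pairs. The 8 genes were covered by between 15 pairs (Spry4 in a 0 h WT library) and 7818 pairs (Dusp5 in a 6 h WT library), and all 8 passed the filter on low counts in every comparison. Gene counts could not check the knockout labels, since they can include exons that the alleles leave in place, and counts by exon were not at hand. Egr1 read 2102 to 4970 CPM in 6 h Egr1KO libraries against 1257 to 1982 in WT. Fosb read 1506 to 1722 CPM in 6 h FosBcKO libraries against 671 to 1491 in WT. The cause of these higher readings was not tested. Egr1KO and FosBcKO therefore stand for the libraries so labelled. The 2 of 5 LEC markers that could be named, Pax6 and Foxe3, together read 659 to 911 CPM at 0 h and 291 to 854 CPM at 6 h. Both were thus detected in every library. In WT their sum fell without overlap, from 681 to 827 CPM at 0 h to 327 to 491 CPM at 6 h. Pax6 was called lower in WT (log2 fold change -1.04, edgeR FDR 0.006857) and Foxe3 was not. Neither marker was called by time in Egr1KO or FosBcKO. Markers of other tissues are given as ranges over the 3 genotypes, and not all of them moved with time. Sag, the 1 named of 2 photoreceptor markers, read 55.8 to 231 CPM at 0 h and 318 to 2192 at 6 h. The 2 red cell markers together read 0.853 to 55.0 CPM at 0 h and 55.7 to 255 at 6 h. The pigment cell markers (2 of 3 named) read 9.48 to 75.7 and 27.6 to 309 CPM, the leukocyte markers (5 of 6 named) 1.45 to 17.4 and 11.3 to 30.5, the endothelial marker Pecam1 (1 of 2 named) 0 to 1.08 and 0.666 to 8.83, and the corneal markers (2 of 2 named) 0.499 to 28.6 and 0.546 to 290. Only the ranges of Sag and of the red cell markers did not overlap between the times. In WT, Sag, Pecam1, Hba-a1, Hbb-bs and the leukocyte marker Cd68 were called higher by 6 h. No pigment or corneal marker was called in WT, while the pigment markers Tyrp1 and Dct were called higher in Egr1KO and in FosBcKO. Ptprc, Adgre1 and Itgam, 3 of the leukocyte markers, were at 0 in replicate 2 of the 0 h WT libraries. The part of these tissues in the results was not tested, and in bulk RNA a change in the share of cells and a change of RNA per cell cannot be told apart.

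**Figure D1:**
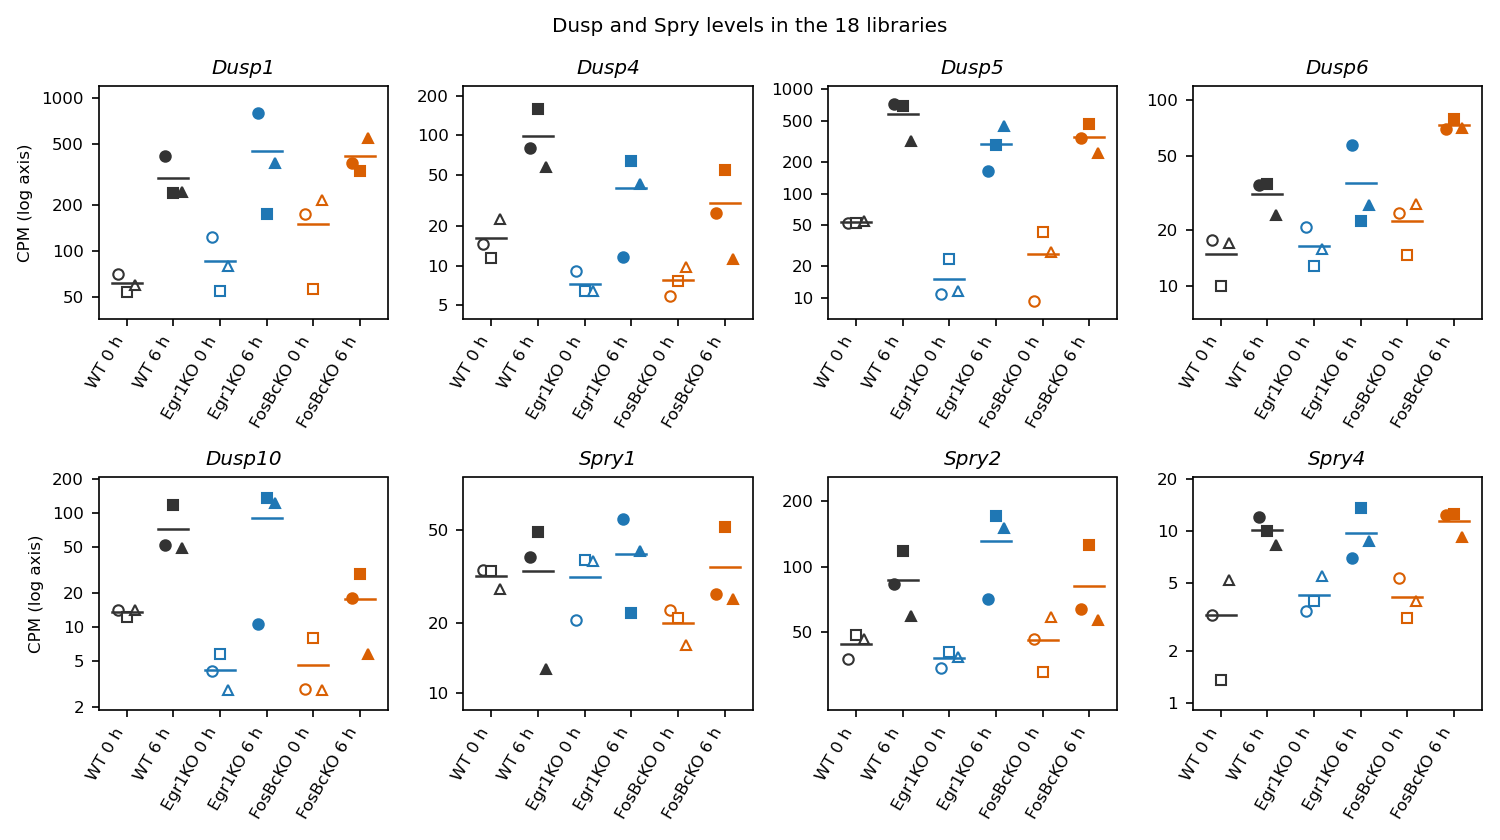
Level of each gene in CPM (log axis) in the 18 libraries, by group. Circles, squares and triangles are replicates 1, 2 and 3, open symbols are 0 h and filled symbols 6 h, and lines are group means. For Dusp5 all 6 h libraries (165 to 714 CPM) lie above all 0 h libraries (9.43 to 54.5 CPM), while for Spry1 the 6 h libraries of WT and Egr1KO overlap those at 0 h.

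The first question was how the feedback genes respond to fiber cell removal in WT LECs. By 6 h PCS, 6 of the 8 genes had risen, namely the 5 Dusp genes and Spry4, where 13.5% of the 15440 genes tested were called higher. For 7 of the 8 genes every 6 h library lay above every 0 h library, which held for 26.5% of all genes. The median log2 fold change of the 8 genes was 1.92, against -0.02 over all genes tested. Spry1 and Spry2 were not called. Pairs that the counting assigned to no annotated feature also took a share that moved with time without overlap in each genotype. Whether such pairs lay inside or outside genes was not examined. The share went from 15.2% to 19.8% at 0 h to 23.6% to 27.4% at 6 h in WT. It went from 9.09% to 13.5% to 20.0% to 24.0% in Egr1KO, and from 8.03% to 20.9% to 23.4% to 30.5% in FosBcKO. Its part in the response was not tested.

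Dusp5, an ERK specific phosphatase of the nucleus, had the largest change. It read 52.5, 52.6 and 54.5 CPM in the 0 h WT libraries and 714, 692 and 319 CPM at 6 h. The rise was 10.5-fold (log2 fold change 3.40 ± 0.32 SE, edgeR quasi-likelihood FDR 0.001158). Its 0 h libraries were almost level, while replicate 3 was the low library at 6 h.

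Dusp4, a nuclear phosphatase of ERK and other MAPKs, read 14.8, 11.4 and 22.6 CPM at 0 h and 80.6, 160 and 57.1 CPM at 6 h in WT. Its log2 fold change was 2.57 ± 0.42 (edgeR FDR 0.00545). Dusp10, which prefers p38 and JNK to ERK, read 14.1, 12.3 and 14.1 CPM at 0 h and 52.4, 117 and 49.3 CPM at 6 h. Both genes were highest at 6 h in replicate 2, and neither had overlapping groups. The log2 fold change of Dusp10 was 2.40 ± 0.35 (edgeR FDR 0.003121).

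Dusp1, an early stress response phosphatase of p38, JNK and ERK, read 70.5, 53.6 and 59.7 CPM at 0 h and 416, 237 and 240 CPM at 6 h in WT, a 4.74-fold rise (log2 fold change 2.24 ± 0.25, edgeR FDR 0.001529). Replicate 1 was the high library here, not replicate 2. Dusp6, the ERK specific phosphatase of the cytoplasm, read 17.6, 9.93 and 16.9 CPM at 0 h and 34.8, 35.1 and 24.0 CPM at 6 h. Its rise of 2.06-fold only just passed the fold limit (log2 fold change 1.04 ± 0.27, edgeR FDR 0.0241), and of the 6 fits that left out 1 library only that without replicate 3 at 6 h kept the call.

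Of the Sprouty genes, Spry4 was called. It rested on the fewest counts, 15 to 187 pairs in a library, and read 3.22, 1.35 and 5.19 CPM at 0 h and 12.1, 9.98 and 8.25 CPM at 6 h in WT. It rose 3.02-fold (log2 fold change 1.59 ± 0.46, edgeR FDR 0.03653), and of the 6 fits without 1 library only those without replicate 3 at 0 h or at 6 h kept the call. Spry2 read 37.7, 48.8 and 46.5 CPM at 0 h and 83.4, 118 and 59.7 CPM at 6 h. Its groups did not overlap and its FDR was 0.02672 in edgeR, but its 1.91-fold change lay under the fold limit. Spry1 read 33.8, 33.3 and 27.9 CPM at 0 h and 38.4, 49.1 and 12.7 CPM at 6 h, with a log2 fold change of 0.04 (95% interval -0.79 to 0.86, edgeR FDR 0.957), and its libraries overlapped.

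Replicate 3 of the 6 h WT libraries held 2.17 CPM of the corneal markers, against up to 188 CPM in its group. It read 319 CPM of Dusp5 and 240 CPM of Dusp1, above every 0 h WT library. The part of corneal tissue in the rise was not tested. The same library had the most Sag, 2192 CPM, and the lowest 6 h level of Dusp4, Dusp5, Dusp6, Dusp10, Spry1, Spry2 and Spry4 of its group.

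In Egr1KO LECs, 5 of the 8 genes had risen by 6 h (Dusp1, Dusp4, Dusp5, Dusp10 and Spry2), where 9.28% of 14586 genes were called higher. For 7 of the 8 genes all 6 h libraries lay above all 0 h libraries, against 21.3% of all genes. The median log2 fold change of the 8 genes was 2.07, against 0.003 over all genes.

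Dusp5 read 10.8, 23.6 and 11.6 CPM at 0 h and 165, 293 and 440 CPM at 6 h in Egr1KO, a 19.3-fold rise (log2 fold change 4.27 ± 0.46, edgeR FDR 0.002374). Dusp10 read 4.07, 5.78 and 2.78 CPM at 0 h and 10.6, 137 and 122 CPM at 6 h, a 21.0-fold rise with a wide error (log2 fold change 4.39 ± 0.88, edgeR FDR 0.01497). Replicate 1 was far below the others at 6 h. Dusp4 followed the same order, from 9.06, 6.35 and 6.44 CPM at 0 h to 11.6, 64.0 and 42.4 CPM at 6 h (log2 fold change 2.42 ± 0.56, edgeR FDR 0.02316).

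Dusp1 had the reverse order, from 122, 54.7 and 79.0 CPM at 0 h to 795, 173 and 372 CPM at 6 h (log2 fold change 2.38 ± 0.55, edgeR FDR 0.02283). Replicate 1 of the 6 h Egr1KO libraries was thus the highest of all 18 libraries for Dusp1 and the lowest of its group for Dusp4, Dusp5, Dusp10, Spry2 and Spry4. Without that library Dusp1, Dusp4, Dusp5, Dusp10 and Spry2 all stayed called, with log2 fold changes of 1.64 for Dusp1 and 4.89 for Dusp10. Spry4 was called too (1.37). Without any 0 h library, or without replicate 3 at 6 h, the calls of Dusp1, Dusp4 and Dusp10 were lost (edgeR FDR 0.05015 to 0.09293), and without replicate 2 at 6 h that of Dusp10 was lost (edgeR FDR 0.0556) and Dusp6 was called.

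Spry2 rose in Egr1KO, from 34.5, 40.8 and 38.8 CPM to 71.3, 170 and 150 CPM (log2 fold change 1.77 ± 0.30, edgeR FDR 0.008852), and was called in all 6 fits without 1 library. Dusp6 read 20.8, 12.7 and 15.7 CPM at 0 h and 57.3, 22.3 and 27.3 CPM at 6 h, with an edgeR FDR of 0.0694. Spry4 read 3.41, 3.89 and 5.44 CPM and then 6.94, 13.6 and 8.74 CPM, with an edgeR FDR of 0.05121. Their 6 h libraries lay above their 0 h libraries without overlap. Spry1 again overlapped, at 20.6, 37.1 and 36.9 CPM and then 55.8, 22.0 and 40.6 CPM (edgeR FDR 0.5606).

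In FosBcKO LECs, 4 of the 8 genes had risen (Dusp4, Dusp5, Dusp6 and Spry4), where 11.2% of 15475 genes were called higher. All 6 h libraries lay above all 0 h libraries for 6 of the 8 genes, against 22.9% of all genes. The median log2 fold change was 1.62, against 0.05 over all genes.

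Dusp6 was the steadiest of them, from 24.6, 14.7 and 27.5 CPM at 0 h to 69.7, 79.2 and 70.4 CPM at 6 h in FosBcKO (log2 fold change 1.74 ± 0.22, edgeR FDR 0.00167). Its call held in all 6 fits without 1 library. Dusp5 read 9.43, 42.9 and 27.5 CPM and then 337, 459 and 244 CPM (log2 fold change 3.73 ± 0.56, edgeR FDR 0.009006), and lost the call without replicate 1 at 6 h (edgeR FDR 0.07334). Dusp4 read 5.85, 7.59 and 9.76 CPM and then 25.5, 53.8 and 11.3 CPM (log2 fold change 1.99 ± 0.54, edgeR FDR 0.03926), a call kept only without replicate 3 at 6 h among the 6 fits without 1 library. All 3 genes were apart between the times.

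Spry4 rose from 5.33, 3.09 and 3.92 CPM to 12.3, 12.6 and 9.16 CPM in FosBcKO (log2 fold change 1.48 ± 0.33, edgeR FDR 0.01282), a call lost without replicate 3 at 0 h or replicate 2 at 6 h. Dusp1 was not called. It read 174, 56.0 and 215 CPM at 0 h and 372, 331 and 542 CPM at 6 h (log2 fold change 1.51 ± 0.48, edgeR FDR 0.06617), with replicate 2 at 0 h apart from the others, and without that library its log2 fold change was 1.05 and it was called. Dusp10 read 2.88, 8.09 and 2.82 CPM and then 18.1, 29.4 and 5.75 CPM, so that its groups overlapped (edgeR FDR 0.07092); it was called without replicate 2 at 0 h and without replicate 3 at 6 h.

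Spry1 and Spry2 missed the FDR limit in FosBcKO. Spry1 read 22.8, 21.0 and 16.1 CPM and then 26.5, 51.6 and 25.4 CPM (edgeR FDR 0.06708), and Spry2 read 46.6, 33.0 and 58.5 CPM and then 63.8, 125 and 56.9 CPM (edgeR FDR 0.1037).

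**Figure D2:**
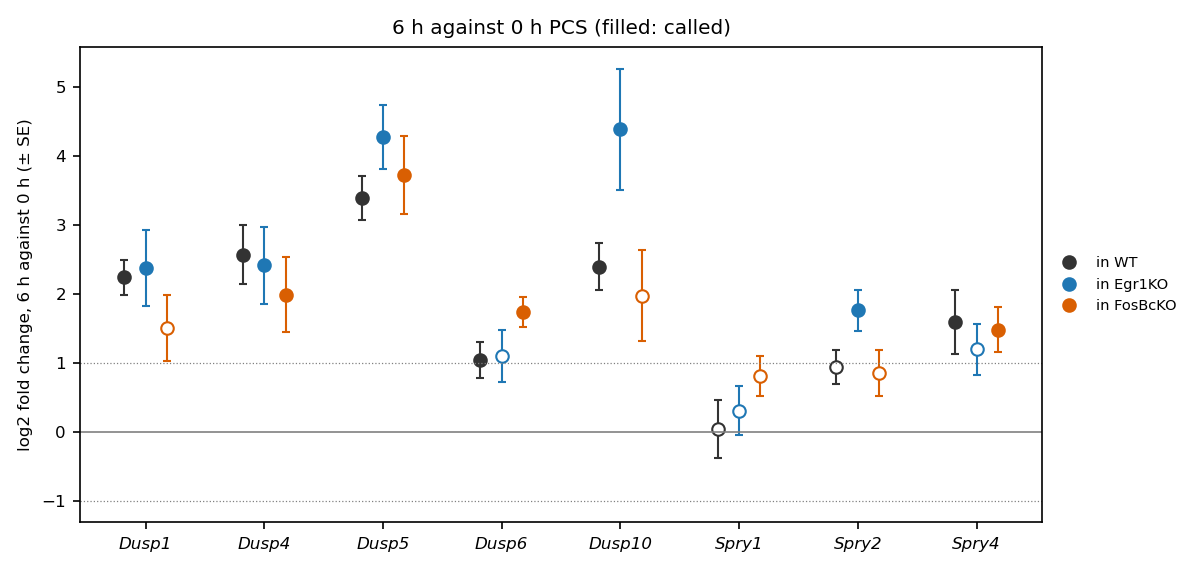
Log2 fold change at 6 h against 0 h PCS of each gene in WT (black), Egr1KO (blue) and FosBcKO (orange), with bars of 1 SE, from edgeR fits of 3 against 3 libraries. Filled points were called, and dotted lines mark 2-fold. Dusp5 lies highest in WT (3.40) and FosBcKO (3.73), and Dusp10 (4.39) beside Dusp5 (4.27) in Egr1KO, while Spry1 lies lowest in each genotype.

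Whether the response differed between genotypes was tested as an interaction over all 18 libraries, with the WT libraries shared by both tests. None of the 8 genes was called in either test, and none of 17469 genes was (0% in both), while 1141 genes for Egr1KO and 1171 for FosBcKO, with 0 of the 8 among them, had an unadjusted p value under 0.05 in edgeR. DESeq2 also called 0 of the 8 genes. The intervals were wide. The response of Dusp10 in Egr1KO exceeded that in WT by 1.98 on the log2 scale (95% interval -0.15 to 4.11, edgeR FDR 0.7876), and that of Dusp5 by 0.85 (95% interval -0.52 to 2.23). In FosBcKO the difference was 0.64 for Dusp6 (95% interval -0.26 to 1.54) and -0.80 for Dusp1 (95% interval -2.25 to 0.66). A called response in one genotype and an uncalled one in another is thus not shown to be a difference between them.

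The next comparison set each knockout beside WT at 0 h, directly after fiber cell removal. Whether a response had begun in any library by then was not tested. In Egr1KO LECs, Dusp5 and Dusp10 were lower than in WT, 2 of the 8 genes where 0.320% of 14373 genes were called lower. Dusp4, Dusp5 and Dusp10 had every Egr1KO library below every WT library, against 7.47% of all genes. With the WT values above, Dusp5 in Egr1KO (10.8 to 23.6 CPM) stood at 0.284 of the WT level (log2 fold change -1.82 ± 0.30, edgeR exact test FDR 1.199e-05). Dusp10 (2.78 to 5.78 CPM against 12.3 to 14.1) stood at 0.309 of the WT level (log2 fold change -1.70 ± 0.30, edgeR exact test FDR 0.001785). Dusp4 had a log2 fold change of -1.18 ± 0.28 and missed the limit (edgeR exact test FDR 0.08613). The other 5 genes overlapped between the genotypes, with log2 fold changes from -0.24 for Spry2 to 0.45 for Dusp1.

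These calls varied with the test used, and Dusp5 and Dusp10 were each called in 7 of the 10 other settings. With the quasi-likelihood test the same fold changes had an FDR of 0.1034 for Dusp5 and 0.05206 for Dusp10, and neither gene was called; in a single fit of all 18 libraries the FDRs were 0.699 and 0.9465. DESeq2 called both genes and Dusp4 as well. Without replicate 3 of the 0 h Egr1KO libraries Dusp10 was not called (log2 fold change -1.48, edgeR exact test FDR 0.08432), and without replicate 2 of the 0 h WT libraries Dusp4 was. Read pairs assigned to no annotated feature made up 9.09% to 13.5% of pairs in the 0 h Egr1KO libraries and 15.2% to 19.8% in the 0 h WT libraries, without overlap. Within Egr1KO the library with the highest share, replicate 2, had the highest Dusp5 and Dusp10. The red cell markers also differed without overlap, at 0.853 to 2.67 CPM in Egr1KO and 2.80 to 6.04 CPM in WT, with Hbb-bs not called (edgeR exact test FDR 0.3244). The corneal marker Krt12 was called lower in 0 h Egr1KO, at 0.222 to 0.582 CPM against 3.52 to 11.9 CPM in WT (log2 fold change -3.97, edgeR exact test FDR 2.41e-06). The part of these in the lower levels was not tested.

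In 0 h FosBcKO LECs no member was called in the exact test, where 0.295% of 14556 genes were called. An unadjusted exact test p value under 0.05 was found for 4 of the 8 genes (Dusp1, Dusp4, Dusp10 and Spry1), and for 818 of the 14556. Dusp1 was higher in FosBcKO, with overlapping groups (log2 fold change 1.27 ± 0.55, edgeR exact test FDR 0.7176). Dusp4, Dusp5, Dusp10 and Spry1 nevertheless had every FosBcKO library below every WT library, against 6.35% of all genes. Their log2 fold changes were -1.08 ± 0.30, -1.0 ± 0.56, -1.56 ± 0.40 and -0.67 ± 0.17, with edgeR exact test FDRs of 0.2644, 0.9811, 0.09271 and 0.3035. DESeq2 called 1 gene, Dusp10 (adjusted p 0.02893). Replicate 2 stood apart from the other FosBcKO libraries at 0 h. It had the lowest Dusp1, Dusp6, Spry2 and Spry4 and the highest Dusp5 and Dusp10. In replicate 2, 20.9% of pairs were assigned to no annotated feature, against 10.5% and 8.03% in replicates 1 and 3. Krt12 was lower in 0 h FosBcKO as well, at 0.399 to 1.14 CPM (log2 fold change -3.31 against WT, edgeR exact test FDR 0.0005761), and its part in these values was not tested. Without replicate 2, Dusp1 was called higher (log2 fold change 1.66, edgeR exact test FDR 2.605e-14) and Dusp10 lower (log2 fold change -2.25, edgeR exact test FDR 3.065e-05), and without replicate 2 of the 0 h WT libraries Dusp4 was called lower.

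At 6 h no member was called between Egr1KO and WT in the exact test, where 0.736% of 15618 genes were called, and DESeq2 called 0 as well. Dusp4 (log2 fold change -1.31 ± 0.58) and Dusp5 (-0.91 ± 0.43) were the 2 members with an unadjusted p value under 0.05, as were 1511 of the 15618 genes. Their edgeR exact test FDRs were 0.4219 and 0.4669. All 8 genes overlapped between the genotypes at 6 h. For Dusp10 the estimate was near 0 with a wide error (log2 fold change 0.32, 95% interval -1.15 to 1.80), and the interval included a 2-fold difference either way.

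Between FosBcKO and WT at 6 h, Dusp6 was higher and Dusp10 lower, where 4.48% of 16155 genes were called higher and 0.929% lower. Dusp6 read 69.7 to 79.2 CPM in FosBcKO and 24.0 to 35.1 CPM in WT, 2.46 times the WT level (log2 fold change 1.30 ± 0.20, edgeR exact test FDR 2.225e-05). It kept the call in all 6 fits without 1 library. Dusp10 read 5.75 to 29.4 CPM in FosBcKO and 49.3 to 117 CPM in WT, or 0.255 of the WT level (log2 fold change -1.97 ± 0.56, edgeR exact test FDR 0.015). That call was lost without replicate 2 of the 6 h WT libraries (log2 fold change -1.46) and without replicate 1 of the 6 h FosBcKO libraries (-1.97). Dusp4 read 11.3 to 53.8 CPM in FosBcKO and 57.1 to 160 CPM in WT and was not called (log2 fold change -1.64 ± 0.56, edgeR exact test FDR 0.06158). It was called without replicate 3 of WT or replicate 2 of FosBcKO. Dusp1, Dusp5 and the 3 Sprouty genes overlapped.

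In the quasi-likelihood fit Dusp6 kept the call (FDR 0.01296) and Dusp10 lost it (FDR 0.1279). In 1 fit of all 18 libraries neither gene was called (FDR 0.05452 and 0.1904), and with the replicate block neither was (FDR 0.06613 and 0.06854) while Dusp4 was (FDR 0.04942). Dusp6 was called in 8 of the 10 other settings and Dusp10 in 6. Other tissues moved between these groups as well. The leukocyte markers read 24.3 to 28.2 CPM in 6 h FosBcKO libraries and 11.3 to 13.8 in WT, the pigment cell markers 130 to 279 and 27.6 to 128, Sag 318 to 873 and 993 to 2192, and Pecam1 0.666 to 3.39 and 4.59 to 8.83, each without overlap, and their part in the differences of Dusp6 and Dusp10 was not tested.

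**Figure D3:**
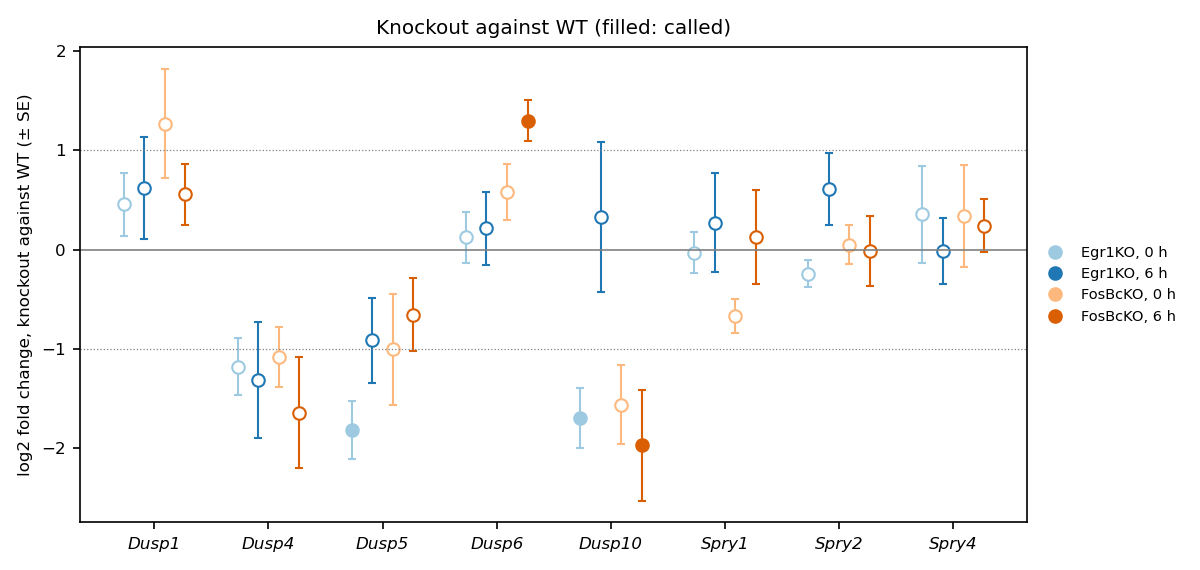
Log2 fold change of each gene in the knockouts against WT at 0 h (light) and 6 h (dark), Egr1KO in blue and FosBcKO in orange, with bars of 1 SE, from comparisons of 3 against 3 libraries that share the WT libraries. Filled points were called by the edgeR exact test. Dusp4 and Dusp5 lie below 0 in all 4 comparisons, Dusp6 above 0, and the called points are Dusp5 and Dusp10 at 0 h in Egr1KO and Dusp6 and Dusp10 at 6 h in FosBcKO.

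Across the 6 groups the order of levels differed from gene to gene. Ordered by group mean, Dusp4 and Dusp5 were highest in 6 h WT LECs (means 99.1 ± 53.8 and 575 ± 222 CPM, SD, n = 3) and lowest in 0 h Egr1KO LECs (7.28 ± 1.54 and 15.3 ± 7.18 CPM). Dusp1 and Dusp6 were lowest in 0 h WT LECs (61.3 ± 8.52 and 14.8 ± 4.25 CPM). Dusp6 was highest in 6 h FosBcKO LECs (73.1 ± 5.28 CPM), the only one of its groups that did not overlap the next. For Dusp10, 6 h WT did not overlap the next group, 6 h FosBcKO, and 0 h WT did not overlap the 0 h knockouts. Its 6 h Egr1KO libraries (10.6 to 137 CPM) spanned the levels of 6 h WT and 0 h WT and overlapped those of 6 h FosBcKO. For Spry1 and Spry2 no group was apart from its neighbour in the order, and for Spry4 the only break lay between the 6 h and the 0 h groups. Dusp5 had breaks below its 6 h groups and below 0 h WT, Dusp4 one below 0 h WT, and Dusp1 one between the neighbours 6 h WT and 0 h FosBcKO, although replicate 2 of 6 h Egr1KO (173 CPM) lay below the highest 0 h FosBcKO library (215 CPM).

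The scatter between replicates was larger at 6 h than at 0 h. The median coefficient of variation of the 8 genes was 36.5% in 6 h WT, 49.6% in 6 h Egr1KO and 37.1% in 6 h FosBcKO libraries, against 28.0%, 30.6% and 25.3% over 17469 genes. In 0 h WT libraries it was 13.6%, against 20.0%, and in 0 h Egr1KO and FosBcKO libraries 27.6% and 28.9%, against 20.2% and 21.5%.

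After the group means were taken away, Dusp1 and Dusp6 deviated together over the 18 libraries (Pearson r 0.83 of log2 CPM), as did Dusp4 and Dusp10 (r 0.84) and Dusp4 and Spry2 (r 0.83), while Dusp1 and Dusp10 deviated in opposite directions (r -0.77). The 28 pairs of genes had a median r of 0.17 and ran from -0.77 to 0.84, and the pairs named here were picked from these ends. In 4 of the 6 groups the same library was highest for Dusp1 and Dusp6, and likewise for Dusp4 and Dusp10. In no group was the same library highest for Dusp1 and Dusp10, and in 3 groups the library highest for Dusp1 was the lowest for Dusp10. These counts do not set the named pairs apart. Dusp4 and Dusp6 (r -0.16) also shared their highest library in 4 groups. The library highest for Dusp1 was the lowest for Spry1 (r 0.15) in 3 groups and for Dusp5 in 4. The libraries share depth, dissection and tissue makeup as well as genotype, so the coefficients are given as a description.

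**Figure D4:**
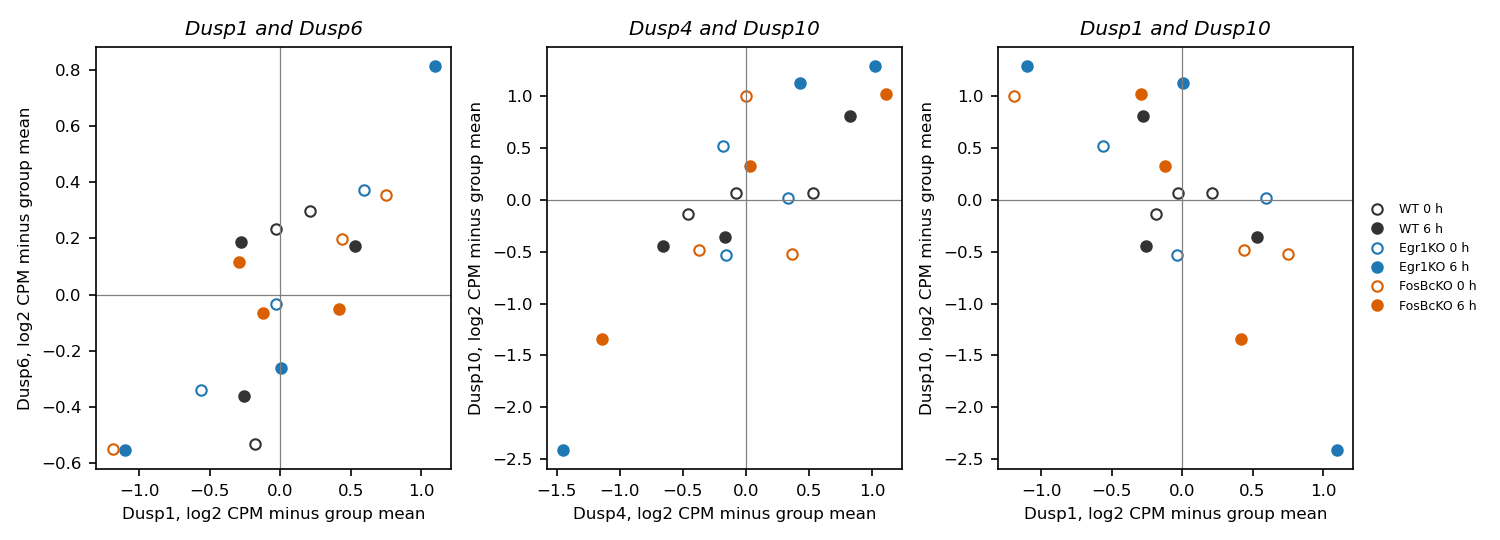
Deviation of each library from its group mean in log2 CPM, for Dusp1 and Dusp6 (left), Dusp4 and Dusp10 (middle) and Dusp1 and Dusp10 (right). Each point is 1 of 18 libraries, open at 0 h and filled at 6 h, with WT in black, Egr1KO in blue and FosBcKO in orange. Points follow a rising line in the first 2 panels and a falling one in the third, where replicate 1 of 6 h Egr1KO lies at the far lower right.

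Other genes of the pathway were taken from lists that could be named only in part, through tables that favour genes with low p values, so their counts are not shares of the full lists. Of the other MAPK phosphatases, 4 of 7 were named. Dusp7, an ERK phosphatase, was the 1 that rose in WT by 6 h (log2 fold change 1.16 ± 0.18, edgeR FDR 0.00412), and Dusp14 had a log2 fold change of 1.16 ± 0.40 (edgeR FDR 0.06462). Between FosBcKO and WT at 6 h, 2 of the 4 were lower, Dusp7 (log2 fold change -1.23) and Dusp9 (-3.31, with at most 1.4 CPM in any library), both given here after their values were seen. In Egr1KO and in FosBcKO, Dusp14 was the 1 of 3 tested that rose by 6 h (log2 fold changes 2.38 and 1.63).

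Of 9 other inhibitors of receptor and Ras signalling, 5 were named and 3 rose in WT. Errfi1, an inhibitor of the EGF receptor, had a log2 fold change of 1.41 ± 0.20 (edgeR FDR 0.002653), and Spred1, a relative of the Sprouty proteins that acts on Ras, 1.01 ± 0.20 (edgeR FDR 0.009958). The third was Spred3 (log2 fold change 1.12), and the median over the 5 was 1.01. In Egr1KO and in FosBcKO, 2 of the 5 rose, Errfi1 (log2 fold changes 1.93 and 1.60) and Spred3 (1.85 and 1.18). Between FosBcKO and WT at 6 h, 1 was higher, Il17rd (log2 fold change 1.14), given like Spred3 after its values were seen.

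Of 14 transcription factors and targets known to follow ERK activity, 13 were named, and in WT 10 rose and 2 fell, where 3.65% of all genes were called lower. The 2 with the lowest p values were the early response gene Ier2 (log2 fold change 3.24 ± 0.25, edgeR FDR 0.0008259) and the zinc finger factor Egr3 (2.96 ± 0.26, edgeR FDR 0.001063). The 2 that fell were Etv1 (log2 fold change -1.42, edgeR FDR 0.003305) and Etv5 (-1.61, edgeR FDR 0.001886), ETS factors that are known targets of FGF signalling, named here after their values were seen. In Egr1KO 10 of the 13 rose and 1, Etv5, fell (log2 fold change -1.12), and in FosBcKO 9 rose and 0 were called lower. Between genotypes Fosl1 was lower in 0 h Egr1KO than in 0 h WT (log2 fold change -1.26, edgeR exact test FDR 0.004188), and Ier3 was higher in 6 h FosBcKO than in 6 h WT (1.23, edgeR exact test FDR 0.02765), both singled out after their values were seen.

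Of 18 receptors, adaptors and kinases 7 were named, and 0 were called in WT. An unadjusted edgeR p value under 0.05 was found for 3 of the 7, and for 6363 of all 15440 genes tested. Egfr, the EGF receptor, had a log2 fold change of -0.67 ± 0.21 (edgeR FDR 0.04683) and Mapk14, the p38 alpha kinase, 0.43 ± 0.17 (edgeR FDR 0.09488). In FosBcKO 0 were called, and in Egr1KO 1 rose, the FGF receptor Fgfr1 (log2 fold change 1.16, edgeR FDR 0.006024), picked after its values were seen.

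**Figure D5:**
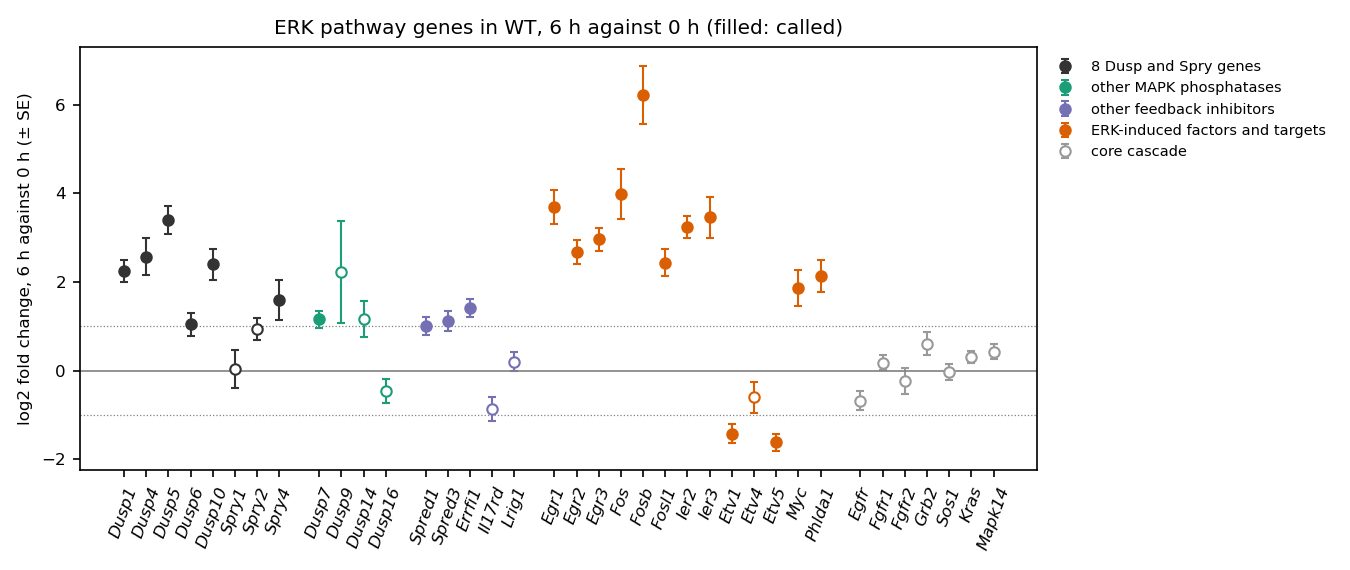
Log2 fold change at 6 h against 0 h in WT LECs, with bars of 1 SE, for the 8 Dusp and Spry genes and for the named genes of 4 other lists of the pathway. Filled points were called and dotted lines mark 2-fold. The early response genes reach 6.21 (Fosb), Etv1 and Etv5 lie below -1, and the cascade genes lie between -0.67 and 0.61.

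Each gene was also set beside the 17461 other genes that passed the filter over all libraries, by the Pearson r of TMM log2 CPM over the 18 libraries, which mixes the change with time and the scatter within groups. The most alike was Fos for Dusp1 (r 0.98), Btg2 for Dusp6 (r 0.94), Mt2 for Dusp5 (r 0.98), Flnc for Dusp10 (r 0.98) and Spred1 for Dusp4 (r 0.96). For the Sprouty genes it was Mrps6 for Spry1 (r 0.90), Wdr1 for Spry2 (r 0.95) and Fgf2, which encodes a growth factor that signals through ERK, for Spry4 (r 0.94). Dusp1 and Dusp6 had Junb among their 3 most alike genes (r 0.98 and 0.92), and Dusp10 had Fosl1 (r 0.97).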

How the data were processed

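RNA of LECs from pooled capsules was sequenced as ribodepleted, stranded, paired-end libraries. The authors aligned the reads with Hisat2 and assigned pairs to Ensembl genes with HTSeq (union); whole-number counts were deposited, with no normalization. The submitters' notes name GRCm39 and the methods GRCm38, so no positions are given, and no sequence was used. Whether counting used strand is not given in the sources used here. HTSeq summary lines were left out of tests. Pairs assigned to no annotated feature made up 8.03% to 30.47%, and where they lay was not examined. Members were taken by ID. Other genes were named from the identifier and symbol columns of the study's supplementary tables (7020 IDs), which are sorted by p value and shortened. Members and lists were chosen with earlier results of these data known.

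After filterByExpr and TMM, edgeR 4.0.16 (R 4.3.3) tested all genes: the quasi-likelihood F-test for 6 h against 0 h and for interactions (all 18 libraries), the exact test for genotypes, with Benjamini-Hochberg FDR; called genes had FDR of at most 0.05 and over 2-fold. SEs came from the quasi-likelihood fit and 95% intervals from the estimate and SE (normal). Each comparison used 3 against 3 libraries; p values measure the spread between pools. From each other list the 2 genes with the lowest p in WT are named. DESeq2 1.42.0 and other settings were alternatives. The code was tested on simulated data. Replicate numbers were checked for pairing: 0 h and 6 h WT libraries of one number deviated from their group means together (r 0.10 to 0.25, above 0.1 in 3 of 3 pairs). The same held for 1 of 3 pairs in Egr1KO and 2 of 3 in FosBcKO. Of pairs with unlike numbers, 0 of 6 in each genotype were above 0.1.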

Additional observations from a re-analysis of the deposited data

How the results depend on the processing

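The rise of 6 members by 6 h in WT was found under all 10 other settings (6 or 7 called), and in fits without 1 library 4 to 7 were called. Fold changes of single members kept direction and call in 643 of 688 fits under other settings, and lost a call in 17, gained one in 24 and changed sign in 4. Without 1 library, 432 of 528 kept both, 33 lost a call, 12 gained one and 51 changed sign. Most results were not called in the main fit, and one that stayed uncalled counts as kept. Calls themselves were less steady. At 6 h against 0 h, Dusp5 in WT kept its call in 6 of 6 fits without 1 library, but Dusp10 in Egr1KO and Dusp4 in FosBcKO in 1 of 6. None of the sign changes met a called value. The causes of these changes were not tested. Spry4 had as few as 15 counted pairs in a library.

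Counts of called members moved as follows. For 6 h against 0 h in Egr1KO, 2 were called with no filter on low counts, and 2 to 6 without 1 library; in FosBcKO 2 to 5 were called without 1 library. For Egr1KO against WT at 0 h, 0 were called in the quasi-likelihood test, 0 with the replicate block and 0 in 1 fit of all 18 libraries, and 1 to 3 without 1 library (1, Dusp5, without replicate 3 of 0 h Egr1KO). For FosBcKO against WT at 0 h, DESeq2 called 1, and 0 to 2 were called without 1 library. For FosBcKO against WT at 6 h, 1 was called in the quasi-likelihood test, 1 (Dusp4) with the replicate block, 0 in 1 fit of all 18 libraries, 1 with no filter and 1 to 3 without 1 library. For the interaction of Egr1KO, 1 member (Dusp10, log2 difference 2.01) was called with no filter.

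Same-numbered WT libraries deviated together, and the replicate block changed no member's call in WT, where it turned Spry1 to -0.14. In FosBcKO every pair of one number (r 0.078 to 0.18) also lay above every pair of unlike numbers (r at most 0.057). In Egr1KO these ranges overlapped (0.020 to 0.15 against -0.11 to 0.088). The main tests took the libraries as unpaired, and whether same-numbered pools share mice is not given in the sources used here. With the block, 5 members were called in Egr1KO, with Dusp6 gained and Dusp4 lost, and 5 in FosBcKO, with Dusp1 (log2 fold change 1.68) and Dusp10 (1.90) gained and Dusp4 lost. Elsewhere it turned Dusp10 between Egr1KO and WT at 6 h to -0.15, and in the interaction of Egr1KO Dusp1 to -0.035 and Dusp6 to -0.062. Over all genes, the 59, 115, 43 and 874 calls of the genotype comparisons (Egr1KO at 0 h and 6 h, FosBcKO at 0 h and 6 h) became 17, 0, 11 and 437 in the quasi-likelihood test, 10, 0, 14 and 86 with the block, and 2, 7, 6 and 289 in 1 fit of all 18 libraries. With no filter 115 became 76 and 43 became 24. With no fold minimum the 2645, 1746 and 2027 calls at 6 h against 0 h (WT, Egr1KO, FosBcKO) became 4048, 3089 and 3381. The 0 interaction calls became 2 and 25 in DESeq2 and 264 and 404 with no filter.

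Ranges of log2 fold changes that crossed 0 without 1 library were, at 6 h against 0 h, -0.36 to 0.43 for Spry1 in WT and -0.048 to 0.61 in Egr1KO. For Egr1KO against WT at 0 h they were -0.10 to 0.28 for Dusp6, -0.17 to 0.20 for Spry1 and -0.018 to 0.87 for Spry4. At 6 h they were -0.090 to 1.01 for Dusp1, -0.31 to 0.47 for Dusp6, -0.10 to 0.86 for Dusp10, -0.12 to 0.66 for Spry1 and -0.32 to 0.18 for Spry4. For FosBcKO against WT they were -0.14 to 0.24 for Spry2 and -0.034 to 0.85 for Spry4 at 0 h, and -0.30 to 0.51 for Spry1 and -0.46 to 0.26 for Spry2 at 6 h. In the interaction of Egr1KO they were -0.58 to 0.49 for Dusp1, -0.72 to 0.35 for Dusp4, -0.47 to 0.29 for Dusp6 and -0.10 to 0.63 for Spry1, and in that of FosBcKO -0.14 to 0.78 for Dusp5, -1.05 to 0.18 for Dusp10, -0.58 to 0.13 for Spry2 and -0.68 to 0.19 for Spry4.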
